A study of Homo sapiens with 20 samples.

Results

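The comparison described here sets the 3 heat-clearing libraries with a low share of the RNA RN7SK against the pool of all 10 spleen-strengthening and yin-nourishing libraries, 13 of the 20 libraries of the series. The libraries were selected on RN7SK itself: a heat-clearing library entered if RN7SK took less than 5% of its total counts. Heat-clearing replicates 03, 07 and 09 entered with 1.78, 2.28 and 2.05%, and replicates 01 and 02 were left out with 5.25 and 6.07%. The highest RN7SK share among the 13 libraries compared was 3.02% (spleen-strengthening 07), and the lowest among the left-out heat-clearing libraries was 5.25%. These shares chose the libraries, so they are given as a description and RN7SK was not tested.

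The series measured RNA from SW1990, an established human pancreatic adenocarcinoma cell line, in what its title calls a mouse model of pancreatic cancer. Per the labels, the heat-clearing samples received a treatment for clearing Heat and removing Dampness, the spleen-strengthening samples one for strengthening spleen and regulating qi-flowing, and the yin-nourishing samples one for eliminating heat by nourishing yin. A 4th group, treated for activating blood and removing stasis, appears below only as single values. The labels name no herb, dose or duration, and no untreated sample, so all values compare one treatment with others. No label ties a sample to a mouse or states that replicates were separate animals, so the spread between libraries may be technical in part.

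RN7SK is the small nuclear RNA that, with HEXIM proteins, holds the elongation kinase P-TEFb in an inactive complex. P-TEFb releases RNA polymerase II from its pause near the start of genes, a step on which immediate early and stress genes rely heavily. In pancreatic cancer cells, glycolysis, the integrated stress response and matrix-remodelling enzymes are programmes known to respond to the tumour's surroundings. PER1 belongs to the circadian clock, a feedback loop in which the activators CLOCK and BMAL1 bind E-boxes in target genes, and PER and CRY proteins repress them.

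**Figure D1:**
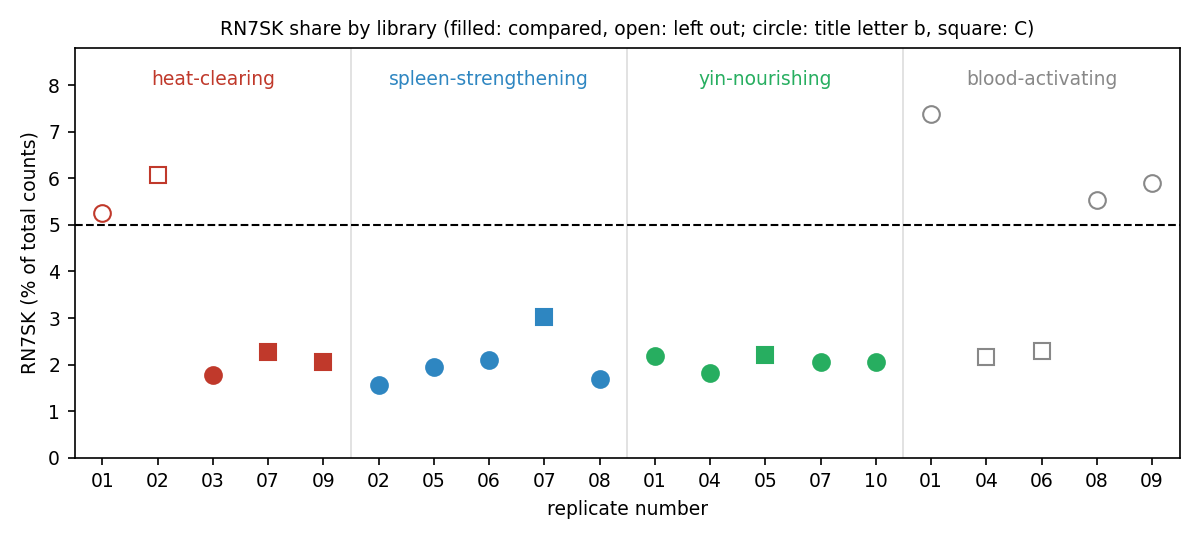
RN7SK as a percent of total counts (y axis) for each of the 20 libraries, by treatment and replicate number. Filled symbols are the 13 libraries compared, open symbols the libraries left out, and the dashed line is the 5% limit; the 3 filled heat-clearing symbols lie at 1.78 to 2.28%.

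Total counts were 93.4 to 135 M (mega) in the 3 heat-clearing libraries and 81.7 to 110.0 M in the other 10. Mitochondrially encoded mRNA took 17.1 to 19.9% of counts in the 3 and 17.2 to 23.2% in the 10. The epithelial markers KRT19 and EPCAM were present in every library, at 825 to 1070 and 101 to 122 CPM (counts per M) in the 3 and at 849 to 989 and 87.6 to 126 CPM in the 10. Markers of pancreatic acinar cells summed to 409 CPM in heat-clearing 03, 7.80 in 07 and 17.4 in 09, against 8.05 to 1080 CPM in the 10, with the highest value in yin-nourishing 10. Fibroblast markers summed to 168 to 241 CPM in the 3 and 119 to 294 CPM in the 10, and endothelial markers to 16.9 to 18.2 against 16.2 to 27.4 CPM. Myeloid and lymphocyte markers summed to 52.8 to 69.3 and 25.5 to 33.8 CPM in the 3 and to 50.6 to 63.6 and 25.7 to 35.4 CPM in the 10. In bulk RNA, fewer cells of a type and less RNA per cell cannot be told apart. How mouse reads were handled is not stated, so the species behind these markers is unknown, here and in the lists below.

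Sample titles end in a letter, b or C, that the sources do not explain. Heat-clearing 07 and 09, spleen-strengthening 07 and yin-nourishing 05 carry C, so 2 of the 3 heat-clearing libraries but 2 of the other 10 do. The slope of a library's log2 expression, taken relative to the mean of the 13, against the GC content of the transcripts was 0.078 to 0.118 per 10% GC in the 4 libraries with C. It was -0.114 to 0.056 in the 9 with b, with the lowest value in heat-clearing 03. KRT8, a simple-epithelium keratin, stood at 606 and 554 CPM in heat-clearing 07 and 09 and at 481 and 492 CPM in the other 2 libraries with C, against 302 CPM in heat-clearing 03 and 305 to 408 CPM in the other 8 with b. The part of this letter in the results was not tested beyond the fits with the letter as a covariate and the ratios within each letter given below.

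**Figure D2:**
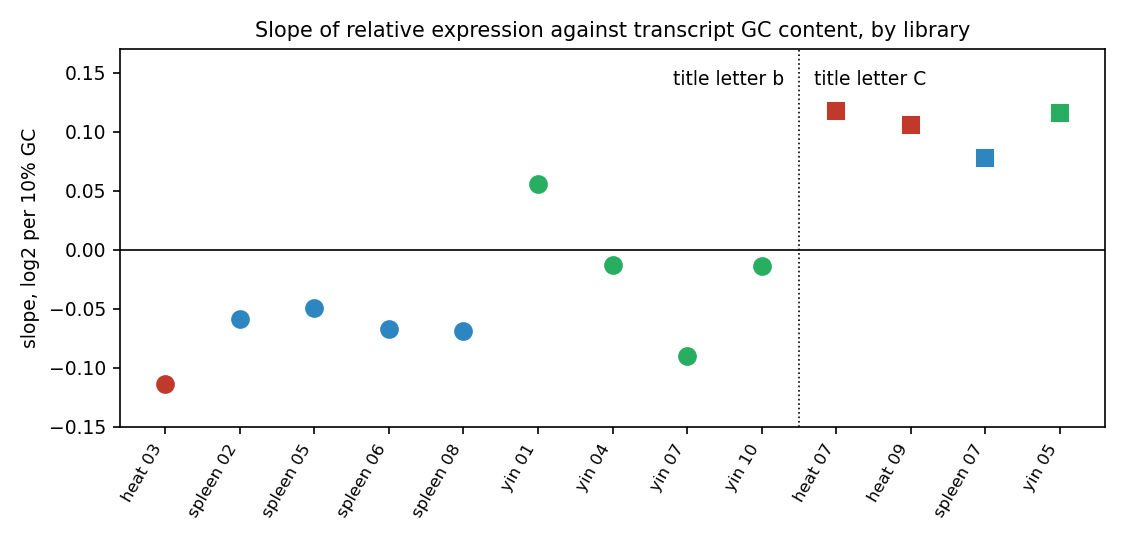
Slope of each library's relative expression against transcript GC content, in log2 units per 10% GC (y axis), with the 9 libraries of title letter b on the left and the 4 of letter C on the right. Red is heat-clearing, blue spleen-strengthening and green yin-nourishing; all 4 slopes with C lie above the highest slope with b.

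No gene passed the test. edgeR's quasi-likelihood test called 0 of 24707 rows of the table at an adjusted p under 0.05, which is 0% of rows, and the smallest adjusted p was 1. At an unadjusted p under 0.05 there were 226 rows higher in heat-clearing (0.915%) and 399 lower (1.61%), together 2.53% of all rows. That is below the share of 0.05 that evenly spread p-values would give, so these rows are no surplus. DESeq2 called 10 rows, all lower, and limma voom 2, both higher. All 3 heat-clearing libraries lay above all 10 others in 75 rows (0.304%) and below all 10 in 26 rows (0.105%). The log2 fold change was above 0 in 49.9% of rows, and its median over all rows was 0.00.

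Intervals were narrower for the better expressed rows. Of the 14494 rows with a mean log2 CPM of 0 or more, 83.2% had a 95% interval that lay wholly within a 2-fold difference in either direction, with a median SE of 0.174 on the log2 scale. Over all rows the share was 48.9% and the median SE 0.382.

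The 24 genes described next, 12 higher and 12 lower, were chosen by their rank on unadjusted p, and each has an adjusted p of 1 by edgeR. Levels are TMM-normalised CPM. Of the 12 genes lower in heat-clearing, 8 had all 3 heat-clearing libraries below all 10 others, and of the 12 higher genes 3 had them above all 10, to be read against 0.105 and 0.304% of all rows. These counts follow from choosing the genes by p in the same libraries and support nothing further.

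PER1, the period gene of the circadian clock, had the smallest p among the lower genes. It stood at 4.06, 5.88 and 4.95 CPM in heat-clearing 03, 07 and 09, and the 10 other libraries ran from 5.62 through a median of 11.2 to 15.8 CPM. Only yin-nourishing 07, at 5.62 CPM, reached into the heat-clearing range, and the other 9 lay at 7.73 CPM or above. The means were 4.96 ± 0.912 CPM (SD, n = 3) and 10.7 ± 2.82 CPM (SD, n = 10). The fitted log2 fold change was -1.11 (SE 0.244, unadjusted p = 0.000222 by edgeR), and DESeq2 called PER1 with an adjusted p of 0.0229. The log2 fold change was -1.04 against spleen-strengthening and -1.17 against yin-nourishing, 2 values that share the heat-clearing libraries. Within title letter b the log2 ratio of means was -1.37 and within letter C -1.11, and over fits without 1 library the fold change ran from -1.25 to -0.98. The left-out heat-clearing 01 and 02 held 11.1 and 7.40 CPM of PER1 on the scale of all 20 libraries.

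PER1 is shown with its promoter because the clock's activators are known to bind the E-box CACGTG. The region is chr17:8152436-8152654 on the minus strand (GRCh38.p14, sequence from RefSeq) and lies upstream of the RefSeq start. It was cut from the 250 bases before that start so as to hold no annotated PER1 exon base in GENCODE release 29, and ends short of the start. The gene itself spans chr17:8140472-8156506 in that release, so the region lies within the annotated gene. The sequence reads 5′ to 3′ with the E-box in capitals, and the E-box begins 173 bases before the start.
PER1: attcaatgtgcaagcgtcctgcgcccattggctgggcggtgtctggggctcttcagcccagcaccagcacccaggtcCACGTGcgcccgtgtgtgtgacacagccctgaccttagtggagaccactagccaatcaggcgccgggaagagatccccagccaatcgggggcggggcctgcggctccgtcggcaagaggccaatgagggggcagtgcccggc
CACGTG reads the same on both strands. It occurs in the 250 bases before the start of 6.34% of all 35116 RefSeq promoter windows, and in 5 of the 17 clock genes with a window: PER1, TEF, CIART, BHLHE40 and BHLHE41. Of the 24 genes with the smallest p, 14 had a window and 2 of these held the motif, CALHM2 and PER1. A match is a description of these letters only.

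In a list of 19 clock genes, added after the value of PER1 was seen, 12 were higher and 7 lower, with a median log2 fold change of 0.04, and PER1 alone had an unadjusted p under 0.05 by edgeR. BHLHE41, a repressor of the clock's activators, had the next smallest p, at 78.7, 71.2 and 85.7 CPM against 76.3 to 126 CPM, groups that overlap (log2 fold change -0.28). PER1 also responds to glucocorticoids. In a list of 16 glucocorticoid receptor targets, added in the same way, 12 were lower (median -0.08). FKBP5, a chaperone partner of that receptor, was among them. It held 9.90, 7.01 and 6.38 against 6.80 to 14.5 CPM (log2 fold change -0.45, edgeR unadjusted p = 0.042). The mean deviation of this list from the mean of all compared libraries was 0.34 in heat-clearing 03, 0.18 in 07 and -0.4 in 09 (log2 scale). In the spleen-strengthening and yin-nourishing libraries it ran from -0.4 to 0.17. Among the heat-clearing libraries the list as a whole was thus below that mean in 09 only.

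FAS, SLC39A8 and SOD3 were also among the 12 lower genes. FAS, the death receptor (chr10:88990582-89015785), held 17.3, 13.9 and 16.3 CPM in the 3 heat-clearing libraries, against 17.5 through a median of 21.3 to 27.3 CPM in the 10. The groups did not overlap, with heat-clearing 03 and spleen-strengthening 07 closest to each other, and the log2 fold change was -0.50 (SE 0.147, edgeR unadjusted p = 0.00279). CASP8, the caspase that FAS activates, was apart from the 10 others mainly in heat-clearing 09: 60.8, 55.8 and 37.7 CPM against 56.0 to 68.8 CPM. SLC39A8, a zinc and manganese importer, held 16.4, 21.0 and 18.7 CPM against 21.1 to 31.1 CPM. SOD3, the secreted superoxide dismutase, held 11.6, 11.0 and 10.3 CPM against 12.9 to 20.4 CPM. The groups were apart for both, with log2 fold changes of -0.47 (SE 0.136) and -0.53 (SE 0.164).

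RAD50, a subunit of the complex that binds broken DNA ends, held 50.4, 60.7 and 72.1 CPM against 69.5 to 87.8 CPM, so heat-clearing 09 overlapped the others. Its log2 fold change was -0.36 (SE 0.0985), -0.24 without heat-clearing 03 and -0.50 without 09. Its partner NBN overlapped the others, at 99.9, 104 and 101 CPM against 103 to 118 CPM (log2 fold change -0.15). GPNMB, a membrane glycoprotein, held 0.782, 1.61 and 1.73 CPM against 1.75 to 3.72 CPM, and C9orf152 held 7.67, 9.96 and 8.77 CPM against 10.9 to 19.7 CPM, both without overlap. PHACTR3, a regulator of phosphatase 1 and actin, had a log2 fold change of -1.33 against spleen-strengthening and of -0.58 against yin-nourishing, a difference that was not tested. Its heat-clearing values of 5.39, 7.91 and 4.12 CPM met the lowest of the 10, 7.89 CPM.

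The remaining 4 lower genes are pseudogenes in the annotation. TCEA1P2 lies inside GOLGA4 on the same strand and held 9.75, 2.19 and 5.05 CPM against 11.0 to 45.6 CPM, a log2 fold change of -2.34 (SE 0.629), and DESeq2 called it (adjusted p = 0.0198). AC010186.2 (log2 fold change -0.44), RALGAPA1P1 (-0.76) and AC060766.5 (-1.91) also overlap other genes on the same strand. Reads from a pseudogene, its parent and its host gene may be split by the counting, so these 4 values are uncertain.

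Among the higher genes, LOXL2, a secreted lysyl oxidase that crosslinks collagen (chr8:23297189-23425328), held 20, 25.7 and 19.5 CPM in heat-clearing 03, 07 and 09. The 10 others ran from 7.79 through a median of 11.5 to 22.0 CPM, and only yin-nourishing 04, at 22.0 CPM, reached the heat-clearing range. The means were 21.7 ± 3.46 CPM (SD, n = 3) and 12.2 ± 4.06 CPM (SD, n = 10), and the fitted log2 fold change was 0.84 (SE 0.222, edgeR unadjusted p = 0.00125). Within title letter b the log2 ratio was 0.63 and within letter C 1.34. LOXL2 stood at 27.8 and 16.1 CPM in the left-out heat-clearing 01 and 02. PLAU, the urokinase that activates plasminogen at the cell surface, held 33.8, 38.9 and 42.3 CPM against 23.0 through 26.1 to 42.9 CPM. Yin-nourishing 05, at 42.9 CPM, lay above all 3 heat-clearing libraries, and the log2 fold change was 0.46 (SE 0.147). In the left-out heat-clearing 01 and 02, PLAU was at 122 and 88.2 CPM.

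TMUB2, TMEM158 and CD320 were the higher genes whose groups did not overlap. TMUB2, a membrane protein with a ubiquitin-like domain, held 12.2, 12.3 and 14.0 CPM against 7.47 to 10.4 CPM (log2 fold change 0.52, SE 0.147). TMEM158, a membrane protein induced by Ras signalling, held 5.09, 6.14 and 5.27 CPM against 2.52 to 4.50 CPM (0.73, SE 0.21). CD320, the receptor that takes up vitamin B12 bound to transcobalamin, held 7.45, 6.21 and 8.01 CPM against 3.69 to 5.88 CPM (0.57, SE 0.177). All 3 genes were higher still in the left-out heat-clearing 01 and 02: 15.4 and 18.0 CPM for TMUB2, 6.82 and 8.64 CPM for TMEM158, and 12.6 and 13.2 CPM for CD320. These left-out libraries differed in more than RN7SK, with mitochondrially encoded mRNA at 10.6 and 13.1% of counts against 17.1 to 19.9% in the 3. Whether levels in them follow the treatment or the type of library was not tested. CALHM2, a calcium homeostasis channel protein, held 10.9, 11.2 and 16.3 CPM against 7.5 to 11.0 CPM, with the overlap at spleen-strengthening 07. CCNH, the cyclin of the kinase that primes RNA polymerase II, held 29.2 CPM in heat-clearing 03 (letter b) and 65.9 and 52.4 CPM in 07 and 09 (letter C). Spleen-strengthening 07, also with C, held 46.5 CPM. The log2 fold change of CCNH was 0.43 without heat-clearing 07 and 0.97 without 03. Its log2 ratio was 0.04 within letter b and 0.65 within letter C.

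**Figure D3:**
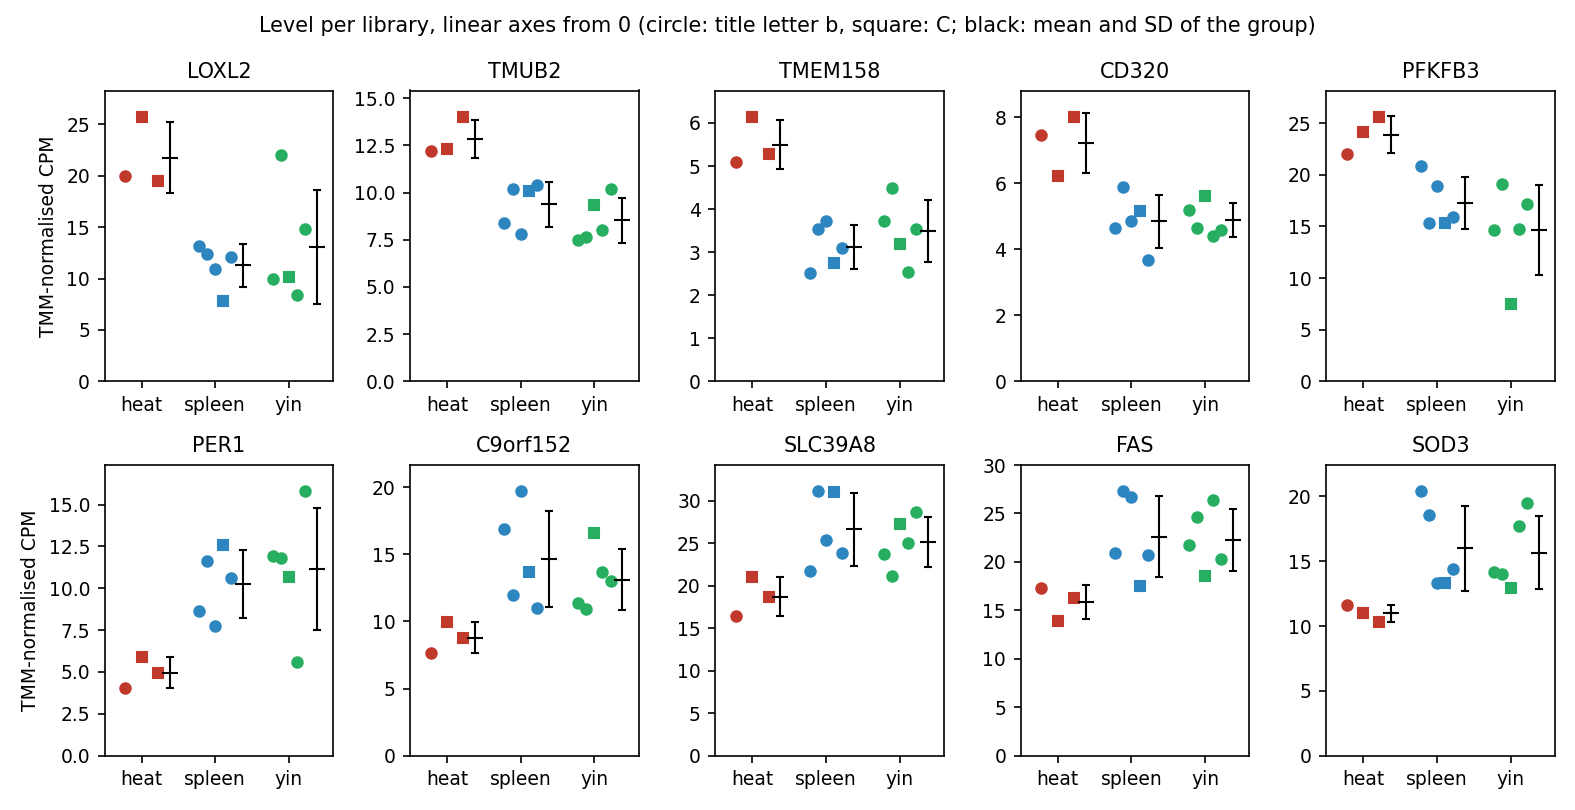
TMM-normalised CPM per library (y axes, linear from 0) for 5 genes higher and 5 lower in the 3 heat-clearing libraries, with spleen-strengthening and yin-nourishing libraries shown apart; circles are title letter b, squares letter C, and black bars the mean and SD of each group. The single yin-nourishing points within the heat-clearing range are 22.0 CPM for LOXL2 and 5.62 CPM for PER1.

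Of the 24 genes, 23 had the same direction within both title letters, the exception being PIK3R2. The genes were chosen by p in these same libraries, so this count is a description and supports nothing. Letter b holds 1 heat-clearing library and 8 others, and letter C 2 and 2, so no test was made within a letter.

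The largest log2 fold changes among the higher genes came from 1 library. PIK3R2, a regulatory subunit of PI3-kinase, held 39.3 CPM in heat-clearing 09 and 0.0343 to 0.329 CPM in the other 12 libraries (log2 fold change 6.88). AC007192.1, a gene model that covers nearly the same stretch of the same strand (chr19:18153158-18178117, against chr19:18153118-18170540 for PIK3R2), held 0 CPM in heat-clearing 09 and 27.5 to 44.7 CPM in the other 12. Summed, both rows gave 39.3 CPM in heat-clearing 09 and 30.3 to 44.9 CPM in the 10, and the log2 fold change of the summed row was -0.02. The same exchange occurred in blood-activating 01, with 50.5 CPM on PIK3R2 and 0.0963 on AC007192.1. FP236383.4, FP236383.5, FP671120.6 and FP671120.7, rows of closely similar values without a match in GENCODE release 29, also rested on heat-clearing 09: FP236383.4 held 15.4, 8.49 and 261 CPM against 2.57 to 23.4 CPM.

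Other overlapping models traded counts in the same way. IRF9, a subunit of the interferon-activated factor ISGF3, held 6.07, 29.8 and 14.1 CPM against 9.35 through 69.2 to 88.7 CPM (log2 fold change -1.90), while AL136295.5, which spans it on the same strand, held 97.4, 60.5 and 79.3 CPM. The sum was 95.7 ± 6.90 CPM (SD, n = 3) against 94.7 ± 14.1 CPM (SD, n = 10), a log2 ratio of 0.02. TMEFF1, a transmembrane protein with follistatin-like domains, held 3.92, 0 and 0 CPM against 1.60 to 4.56 CPM, and the read-through model MSANTD3-TMEFF1 held 0, 3.71 and 3.50 CPM. Their sum was 3.71 ± 0.208 CPM (SD, n = 3) against 4.21 ± 0.814 CPM (SD, n = 10). The read-through BIVM-ERCC5, the row with the smallest adjusted p in DESeq2 (6.32e-10), was at 0 in all 3 heat-clearing libraries and in 6 of the 10 others. With BIVM and ERCC5 added, the sum was 93.4 ± 9.36 CPM (SD, n = 3) against 91.2 ± 7.02 CPM (SD, n = 10). IRF9 aside, these loci and the next gene were chosen after their values were seen. Several other genes described here also overlap an annotated gene on the same strand. Among them are PER1 (AC129492.3), RAD50 (AC116366.3), SLC39A8 (AC098487.1), LOXL2 (ENTPD4), CD320 (AC010323.1) and HSPB8 (AC084880.1). Their rows were not summed with those genes, so an exchange of counts there was not tested.

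**Figure D4:**
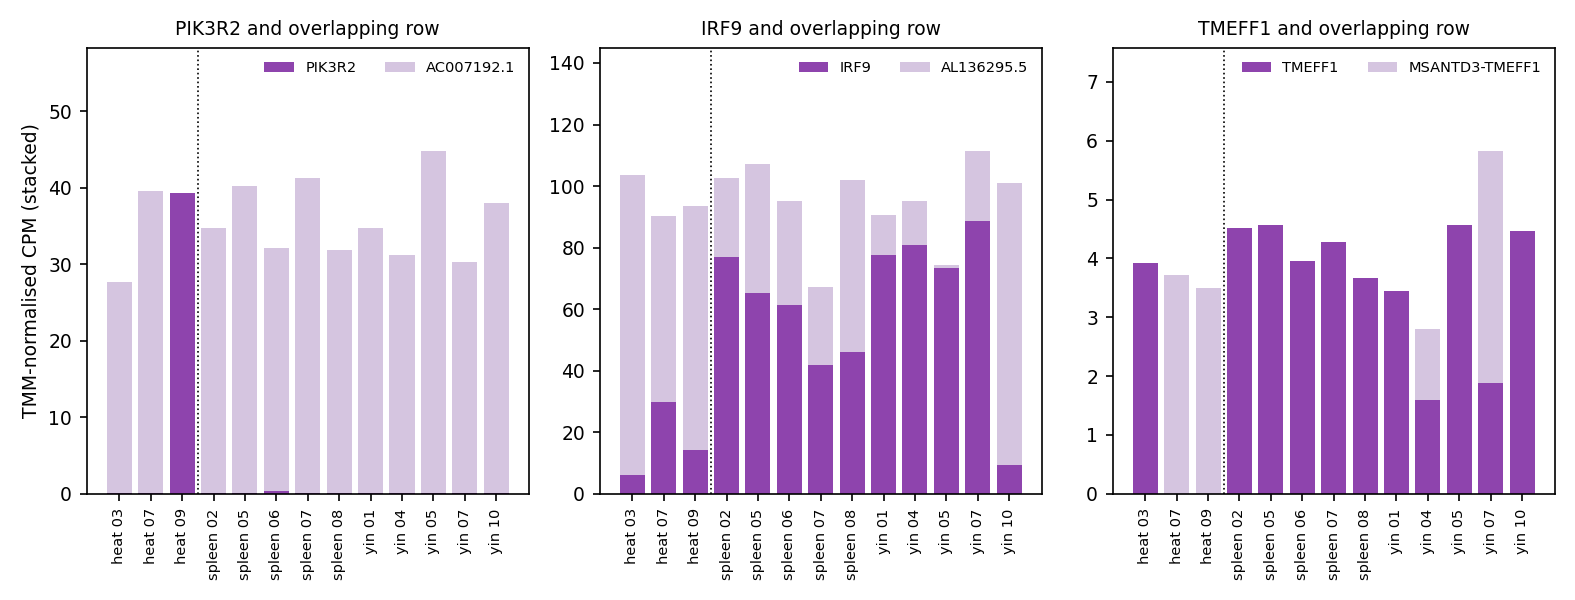
Stacked TMM-normalised CPM (y axis) of 3 genes, in dark, and of a gene model that overlaps each on the same strand, in light, for the 13 libraries (x axis; the dotted line parts the 3 heat-clearing libraries from the 10 others). The dark share differs between libraries while the stack in heat-clearing 09 is 39.3 CPM for PIK3R2 plus AC007192.1, within the 30.3 to 44.9 CPM of the 10 others.

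HAS3, which makes hyaluronan at the cell surface, was low in 2 of the 3 heat-clearing libraries: 22.1 CPM in 03, 5.70 in 07 and 2.06 in 09, against 16.4 through 21.6 to 28.0 CPM in the 10. Its log2 fold change was -1.13 (SE 0.52, edgeR unadjusted p = 0.0503), and without heat-clearing 03 it was -2.49 (edgeR adjusted p = 0.0197). The left-out heat-clearing 01 and 02 held 30.9 and 42.1 CPM. HAS3 (chr16:69105564-69118719) overlaps CHTF8 on the other strand at its end, and CHTF8 held 3.66, 37.5 and 42.3 CPM in heat-clearing 03, 07 and 09 and 2.37 to 37.0 CPM in the 10. The sum of both rows was 37.7 ± 10.4 CPM (SD, n = 3) against 37.5 ± 16.7 CPM (SD, n = 10), a log2 ratio of 0.01. In spleen-strengthening 02 and 05 and yin-nourishing 07 and 10, CHTF8 was at 30.9 to 37.0 CPM. HAS3 held 28.0, 17.3, 25.4 and 23.1 CPM in these. In the other spleen and yin libraries CHTF8 was at 2.37 to 8.20 CPM and HAS3 at 16.4 to 26.4 CPM. The sum ran from 19.2 to 60.1 CPM over the 10. The genes overlap only from chr16:69118010 to 69118719. Whether the counting used strand is not stated, so reads of that stretch cannot be told apart.

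Gene lists are described by counts and medians beside the 49.9% higher and the median of 0.00 over all rows, and no member of any list passed edgeR's test over all rows. Glycolysis and lactate export leaned higher, with 21 of 22 tested members above 0 and a median log2 fold change of 0.18. PFKFB3, which makes the activator of phosphofructokinase, held 22.0, 24.1 and 25.6 CPM against 7.53 through 15.6 to 20.9 CPM, with no overlap (log2 fold change 0.58, SE 0.19, edgeR unadjusted p = 0.00647). ENO1, the enolase, held 335, 375 and 503 CPM against 273 to 364 CPM, so heat-clearing 03 lay inside the range of the 10 (log2 fold change 0.32, SE 0.109). The mean deviation of the 22 genes from the 13-library mean was -0.02 in heat-clearing 03, 0.12 in 07 and 0.30 in 09, on the log2 scale. It reached 0.23 in yin-nourishing 10, and without heat-clearing 09 the list's median was 0.07.

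Genes of amino acid supply and the integrated stress response had 24 of 32 members higher (median 0.14), and without heat-clearing 09 the median was 0.07. TRIB3, a pseudokinase induced by ATF4, held 7.99, 9.08 and 13.9 CPM against 5.71 to 9.62 CPM (log2 fold change 0.46). PCK2, the mitochondrial enzyme that makes phosphoenolpyruvate, held 4.01, 4.15 and 3.23 CPM against 1.39 to 4.14 CPM (0.63). DDIT4, a brake on mTORC1 in the same list and among the hypoxia targets, went the other way at 73.6, 81.1 and 94.7 CPM against 74.6 to 113 CPM (-0.23). With the title letter as a covariate the median of this list was 0.04.

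Hypoxia targets had 20 of 27 members higher (median 0.13) and matrix proteases with their inhibitors 18 of 22 (median 0.13). VEGFA, the angiogenic factor, held 47.3, 37.0 and 50.7 CPM against 27.5 to 50.2 CPM, groups that overlap. With the title letter as a covariate the hypoxia median was 0.36, and without heat-clearing 03 it was 0.05. Without heat-clearing 07 the protease median was 0.05. Immediate early genes had 27 of 37 members higher (median 0.08), and the median was -0.01 without heat-clearing 07 and 0.20 without 03. PHLDA1, a growth-factor-induced gene, held 206, 189 and 231 CPM against 142 to 201 CPM (log2 fold change 0.31), and DUSP4, a phosphatase that damps MAP kinases, was lower at 322, 310 and 300 CPM against 314 to 400 CPM (-0.21).

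Of 15 genes of the pause-release machinery, 10 were higher (median 0.07). HEXIM1, the protein partner of RN7SK in holding P-TEFb, held 45.3, 47.2 and 48.9 CPM against 36.1 to 45.8 CPM (log2 fold change 0.21, SE 0.0849), with yin-nourishing 04 the 1 library that overlapped. SUPT5H, a pausing and elongation factor, held 27.1, 36.3 and 39.2 CPM against 21.2 to 33.3 CPM (0.31). In the left-out heat-clearing 01 and 02, HEXIM1 was at 27.6 and 23.1 CPM and SUPT5H at 60.7 and 50.2 CPM. NRARP, a feedback inhibitor of Notch signalling, was 1 of 24 Wnt and Notch genes and held 20.9, 24.2 and 19.9 CPM against 14.4 to 19.2 CPM, with no overlap (0.33).

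Of 16 small RNAs of structural complexes, 14 were lower, with a median of -0.45. RNU2-2P, a U2 spliceosomal RNA gene, held 58.4, 29.6 and 45.5 CPM against 43.5 to 81.6 CPM (log2 fold change -0.56), and RNU1-1, a U1 gene, held 10.9, 4.01 and 6.72 CPM against 6.73 to 13.7 CPM (-0.58). The mean deviation of the list was -0.66 in heat-clearing 07, -0.25 in 09 and -0.07 in 03, but -0.50 in yin-nourishing 07. Without heat-clearing 03 the median was -0.96 and without 07 it was -0.26. The heat-clearing libraries were selected on RN7SK, itself a small structural RNA, so this list may not be independent of the selection. RPPH1, a member of the list, held 1908 to 2514 CPM of total counts in the 3 and 8393 and 7122 CPM in the left-out heat-clearing 01 and 02. With all 5 heat-clearing libraries RNU2-2P and RNU1-1 turned higher. Several RNAs of the list, the U1 and U2 genes among them, come from families of near-identical copies, so their rows are uncertain.

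Of the 13 mitochondrially encoded mRNAs 12 were lower (median -0.15), MT-ND3 being the exception at 266, 295 and 337 CPM against 231 to 341 CPM. MT-CO2, a subunit of cytochrome oxidase, held 34800, 26800 and 25500 CPM against 24100 to 40800 CPM, and MT-ATP6, of ATP synthase, 19700, 15900 and 15400 against 14400 to 24100 CPM. For both, the lowest library was spleen-strengthening 07, which like heat-clearing 07 and 09 carries the letter C. With the letter as a covariate the median of the list was -0.05.

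DNA repair and helicase genes were lower in 23 of 27 members (median -0.07), mitotic genes in 24 of 30 (median -0.05), interferon-stimulated genes in 24 of 33 (median -0.10) and fatty acid genes in 14 of 17 (median -0.06). Without heat-clearing 03 the interferon median was -0.03 and the fatty acid median -0.02. Mean deviations in heat-clearing 03, 07 and 09 were -0.29, 0.05 and -0.02 for interferon genes and -0.14, 0.02 and 0.00 for fatty acid genes. For mitotic genes they were -0.02, -0.08 and 0.04, against -0.19 to 0.37 in the 10. Macrophage and myeloid markers were lower in 5 of 9 (median -0.54), with a median of -1.11 without heat-clearing 03 and 0.05 without yin-nourishing 07. The mean deviation of this list was 0.79, -0.34 and -0.44 in heat-clearing 03, 07 and 09 and -0.83 to 1.59 in the 10. Fibroblast and stellate cell markers were lower in 14 of 15 (median -0.21), with a median of -0.50 without heat-clearing 03, -0.04 without 09 and 0.04 with the letter as a covariate. The ribosomal protein list had 30 of 52 members higher (median 0.01), and the basal-like and classical tumour subtype lists had medians of 0.00 and -0.01.

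**Figure D5:**
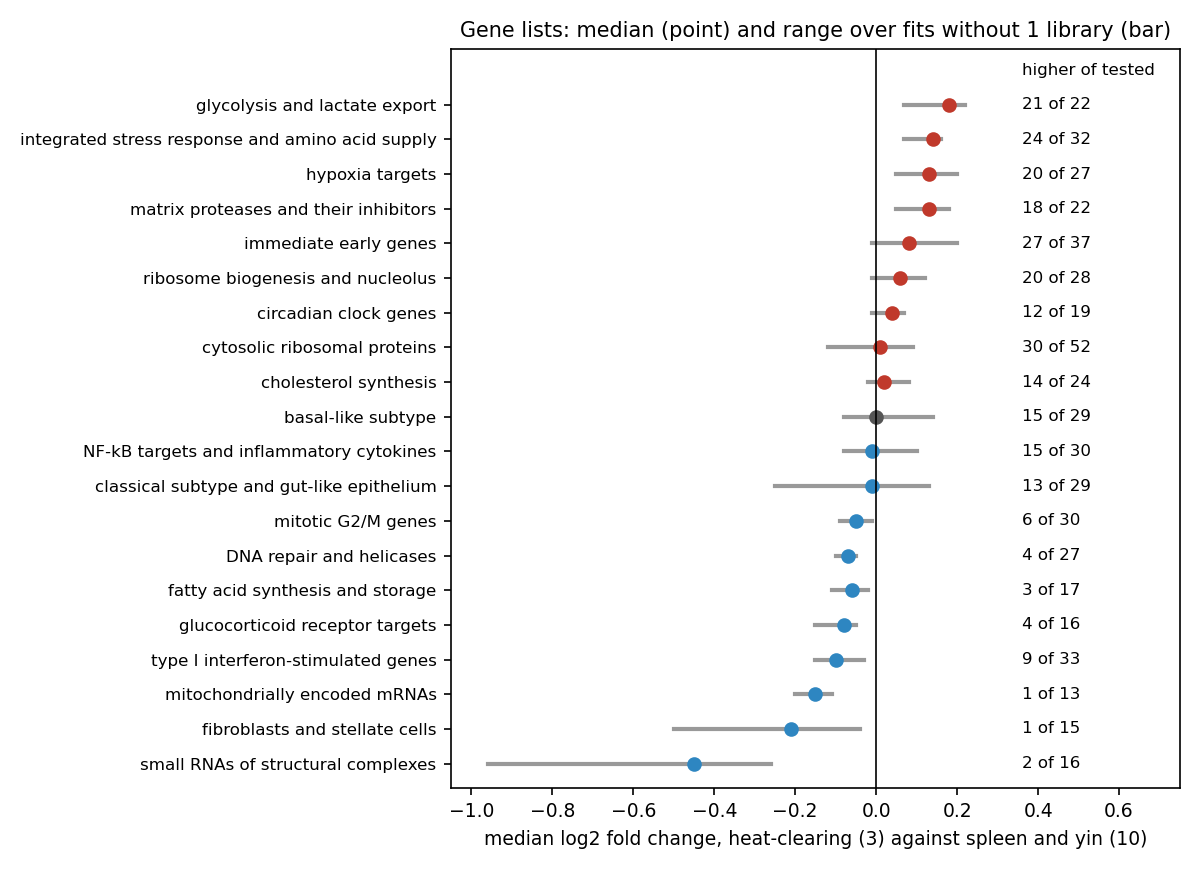
Median log2 fold change of 20 gene lists (x axis; points are the 13-library value, bars the range over fits that each leave out 1 library), with the number of members higher of those tested at the right. Among these 20, glycolysis has the highest median, 0.18, and small structural RNAs the lowest, -0.45, and the bars of several lists cross 0.

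Against spleen-strengthening alone edgeR called 0 of 24707 rows, with 800 (3.24%) at an unadjusted p under 0.05, 436 of them higher. Against yin-nourishing alone it called 0 as well, with 743 (3.01%) at an unadjusted p under 0.05, 407 of them higher. Both percentages are also below the share of 0.05 that evenly spread p-values would give. DESeq2 called 14 rows and 8 rows in these comparisons, and limma voom 0 in both. NAB2, a corepressor of EGR transcription factors, was 1 of the immediate early genes. It held 7.85, 9 and 10 CPM in heat-clearing, 4.16 to 5.60 CPM in spleen-strengthening and 6.81 to 8.45 CPM in yin-nourishing, so the log2 fold change was 0.85 (SE 0.179) against the first and 0.25 (SE 0.181) against the second. SH2D5, an SH2-domain gene, held 1.11, 0.588 and 0.457 CPM in heat-clearing, 0 to 0.037 CPM in spleen-strengthening and 0.202 to 0.88 CPM in yin-nourishing. KRT16, a stress-induced keratin, stood at 98.1, 107 and 153 CPM against 63.6 to 99.1 CPM in spleen-strengthening and 78.2 to 121 CPM in yin-nourishing. The difference between these partners was not tested.

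Some further genes had an unadjusted p under 0.05 in the pooled comparison by edgeR. HSPB8, a small heat shock protein, held 2.73, 6.03 and 2.36 CPM against 1.21 to 2.90 CPM, with heat-clearing 07 apart (log2 fold change 0.89, SE 0.328). VIM, the mesenchymal filament vimentin, held 936, 1020 and 1050 CPM against 596 to 1130 CPM (0.31). BCL3, a nuclear cofactor of NF-kB, held 16.4, 22.3 and 21.0 CPM against 13 to 18.6 CPM (0.32), with heat-clearing 03 inside the range of the 10. CDK5R1, the activator of the kinase CDK5 and a gene named by earlier results of these data, held 23.7, 17.8 and 14.1 CPM against 21.7 to 32.0 CPM, again with heat-clearing 03 inside it (-0.46). ERAP2, which trims peptides for MHC class I, was low in heat-clearing 03 only: 28.3, 54.3 and 49.1 CPM against 48.0 to 63.3 CPM (-0.35). MUC6, a gastric gel-forming mucin, held 2.76, 5 and 3.06 CPM against 2.85 to 12.6 CPM (-0.79), and its log2 fold change was -1.17 against spleen-strengthening and -0.28 against yin-nourishing.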

How the data were processed

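Ribosomal RNA was removed from total RNA and libraries were made with a directional kit, per the labels. The authors deposited 1 table of raw counts per gene, 60656 rows with 1047 repeated symbols, for 20 libraries; the submitters' processing notes name HISAT2, StringTie and hg38, without versions. Not given in the sources used here are the annotation, the strand setting and how mouse reads were handled. Counts without molecular identifiers are not independent molecules.

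The 13 libraries were filtered with edgeR's default filter (minimum count 10), normalised by TMM and fitted in edgeR 4.0.16, under R 4.3.3 (robust quasi-likelihood F-test, Benjamini-Hochberg adjustment over all rows, threshold 0.05), once pooled and once with 3 groups. DESeq2 1.42.0, limma 3.58.1 and the settings of the closing section were alternatives. The edgeR steps were tested on simulated data. P-values measure only the spread between these libraries. Libraries, gene lists and tests were chosen with earlier results of these data known. Levels of left-out libraries are on a TMM scale of all 20.

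Named genes have a mean log2 CPM of 0 or more and a symbol other than RN7SK: the 12 with the smallest p in each direction, and up to 2 per direction from each of 44 lists. NAB2, SH2D5, CDK5R1, ENO1, PCK2, VEGFA, MT-ATP6 and MT-CO2 were named by earlier results. Symbols on more than 1 row were left out of the lists. Lists of clock genes and glucocorticoid receptor targets were added after seeing values. HAS3 and TMEFF1 fall outside this rule. GC content is the mean over a gene's GENCODE transcripts. Positions are from GENCODE release 29, where 59 of 63 names matched.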

Additional observations from a re-analysis of the deposited data

Results flagged for a closer look

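Within the 5 spleen-strengthening or 5 yin-nourishing libraries, 1 library lay far from the other 4 for 10 of the gene and group pairs described, out of 112 checked; chance flags about 1 in 20 groups. Yin-nourishing 10 was the high library for the 4 closely similar rows FP236383.4 (23.4 CPM), FP236383.5 (22.9), FP671120.6 (23.0) and FP671120.7 (14.1), which are not independent of each other, and the low library for IRF9 (9.35 CPM), with 91.8 CPM on the overlapping AL136295.5. It also held the highest acinar sum, 1080 CPM. PLAU was high in yin-nourishing 05 (42.9 CPM), PHACTR3 in yin-nourishing 07 (10.6 CPM) and HEXIM1 in yin-nourishing 04 (45.8 CPM). HAS3 was high in spleen-strengthening 02 (28.0 CPM), and SH2D5 was at 0.037 CPM there and at 0 in the other 4 spleen-strengthening libraries.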

How the results depend on the processing

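edgeR called 0 genes in the pooled comparison under every normalisation, filter, covariate and design tried, and 0 without the robust option, an alternative chosen after seeing the data. DESeq2 called 10 genes pooled, 14 against spleen-strengthening and 8 against yin-nourishing, and limma voom called 2 pooled. Of the 10, 8 were at 0 in all 3 heat-clearing libraries, and PER1 and TCEA1P2 were not. Over fits without 1 library the count was 0 to 2 in each of the 3 comparisons. The 2 appeared without heat-clearing 03, and in the pooled comparison they were HAS3 (-2.49) and TMEFF1 (-11.48, a fitted value against libraries at 0). With all 5 heat-clearing libraries, 0 genes were called, and 2121 rows were higher and 1256 lower at an unadjusted p under 0.05 by edgeR; DDIT4 turned to 0.24, RNU2-2P to 1.38, RNU1-1 to 0.49 and HEXIM1 to -0.09; this fit includes the RN7SK-high libraries by construction. MT-ND3 turned to -0.01 with the title letter as a covariate and ran from -0.04 (without heat-clearing 09) to 0.13 (without 03) over fits without 1 library, and PIK3R2 to -0.02 when summed with AC007192.1, chosen after seeing the data. The other log2 fold changes of named genes kept their direction, 1557 of 1564 values. Without a filter, edgeR rows at an unadjusted p under 0.05 were 2923 higher and 486 lower, against 226 and 399 with it. No paired analysis was possible because the heat-clearing libraries share only the number 07 with the others. The median SE was 0.382 over all rows and 0.174 over rows with a mean log2 CPM of 0 or more.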

Other observations

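The rows called only by DESeq2 or limma voom were mostly rows at or near 0 counts in several libraries. Z83844.2 was at 0 in all 3 heat-clearing libraries and in 6 of the 10 others, and UGT1A8 and UGT1A9, which share exons with the rest of the UGT1A glucuronosyltransferase locus, likewise. UGT1A5, of the same locus, went the other way, at 0.148, 0.211 and 0.283 CPM in heat-clearing and 0 in the 10. MTDHP1, a pseudogene, held 0.57, 0.368 and 0.334 CPM and was at 0 in 9 of the 10. These rows were chosen after their values were seen.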
